A study of Drosophila melanogaster with 20 samples.

Results

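m6A peaks that were listed in the males of 3 m6A writer mutants but not in yw males numbered 992, of 21050 peaks in the Mettl3 list (4.71%) and of 98715 peaks in the 5 lists of the series. A peak of the Mettl3 list was taken when no yw male peak covered more than 50% of the smaller of the pair, and when a peak of the Mettl14 list and a peak of the Hakai list overlapped it by the same rule and had no yw male partner themselves. The members were thus chosen by presence and absence in the lists of these 4 genotypes, which is a description and was not tested. The 992 peaks were annotated to 891 genes and lay at 978 distinct positions, because a few were listed again for another overlapping transcript. They partnered 1004 Mettl14 peaks and 997 Hakai peaks. Of all 5320 Mettl3 peaks without a yw male partner (gained peaks), they were 18.6%. A further 664 were gained in Mettl3 and Mettl14, 508 in Mettl3 and Hakai, and 3156 in the Mettl3 list alone. Gained here means listed in one genotype and not in the other, with no test of the difference in enrichment. The study did test that difference, and reported far fewer increased than reduced peaks in each mutant. It found a significant overlap of the 3 mutants for the reduced peaks only. The 3 comparisons share one yw male list, and a peak missed there would count as a gain in every mutant. In the other direction, 506, 1028 and 744 yw male peaks were missing from the Mettl3, the Mettl14 or the Hakai list alone.

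N6-methyladenosine (m6A) is a methyl mark on adenosines of messenger RNA, placed in the nucleus by a writer complex. Mettl3 is its catalytic subunit, Mettl14 the partner that helps to hold the RNA, and Hakai, a predicted ubiquitin ligase, belongs to the associated part of the complex with Fl(2)d, Vir, Nito and Flacc. YTH-domain proteins read the mark and act on splicing, stability and translation of the RNA. In flies the pathway is best known for the splicing of Sxl and for behaviour that depends on the nervous system. An antibody against m6A enriches fragments of RNA, and a peak is a stretch of exon where the precipitated (IP) fragments exceed the input fragments. The ratio of IP over input is its fold enrichment.

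The libraries came from poly(A) RNA of whole adult flies about 1 to 2 days old: Mettl3SK2/Df males (one mutant allele over a chromosomal deficiency, which also leaves its other genes in a single copy), Mettl14SK1 males, Hakai4 males (the HakaiSH4 allele), yw females and yw males, with 2 IP and 2 input libraries each. All were whole flies, so a lower level of a transcript in fewer cells and in the same number of cells cannot be told apart. Each genotype had 1 peak list made from both replicates together, so peak values have no replicate check. The number of reads was not given, and the depth is unknown. FPKM is the number of fragments mapped, scaled to transcript length and library size. On the log2(FPKM + 1) scale, the input replicates of each male group correlated with r of 0.977 to 0.994. This covered genes with a mean of at least 1 FPKM over the male libraries, and yw females were not part of it. The mutated genes were lowest in their own mutants. Mettl3 RNA was 2.43 and 2.10 FPKM in Mettl3 males, against 5.22 and 5.17 FPKM in yw males. Mettl14 RNA was 1.77 and 2.02 FPKM in Mettl14 males, against 4.19 and 4.25 FPKM in yw males, and Hakai RNA 0.767 and 1.21 FPKM in Hakai males, against 2.47 and 3.36 FPKM in yw males. In limma's fit their log2 fold changes on the log2(FPKM + 1) scale were -0.93, -0.85 and -0.97, with adjusted p of 0.00269, 0.00398 and 0.0204.

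The gained peaks were weak to moderate ones. Their median fold enrichment was 2.26 in the Mettl3, 2.31 in the Mettl14 and 2.38 in the Hakai list, compared with 2.53, 2.79 and 2.89 for all peaks of these lists. In all 3 lists, 760 of the 992 had a false discovery rate (FDR) of at most 0.01. A fold enrichment of at least 2 in every list was found for 438, and 30 had at least 5 in every list. Another 215 stayed under 2 in each list. No mutant held most of the highest values, with 336 peaks highest in Mettl3, 343 in Mettl14 and 313 in Hakai. Across the 992 peaks, fold enrichments in 2 lists correlated with Spearman's rho of 0.63 (Mettl3 and Mettl14), 0.64 (Mettl3 and Hakai) and 0.73 (Mettl14 and Hakai), a description across peaks, which share genes and the same peak caller. The peaks were short, with a median of 210 exonic bases, against 150 for other gained Mettl3 peaks and 271 for Mettl3 peaks with a yw male partner, and 865 consisted of 1 exonic block.

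**Figure D1:**
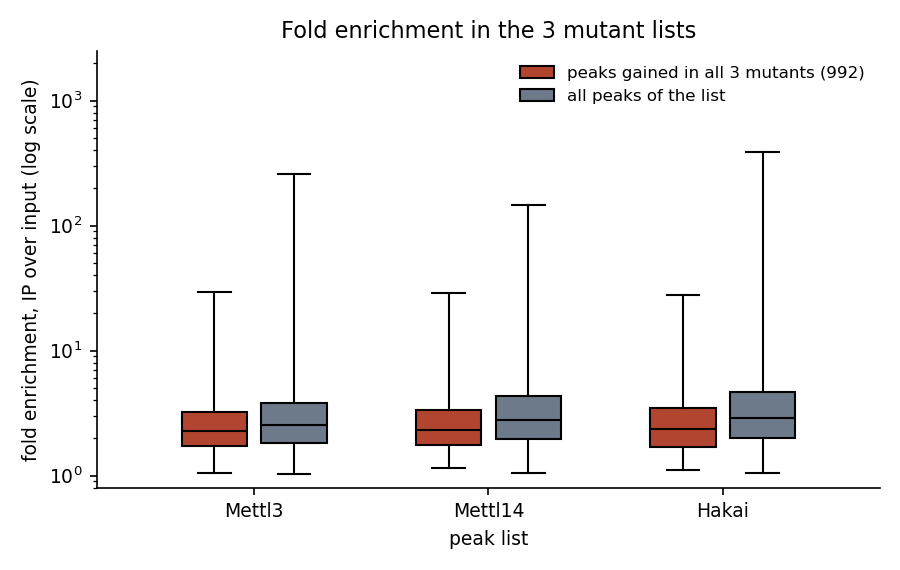
Fold enrichment (IP over input, log axis) in the Mettl3, Mettl14 and Hakai lists for the 992 peaks gained in all 3 mutants (left box of each pair) and for all peaks of the list (right box). Boxes span the quartiles with the median as a line, and whiskers run from the lowest to the highest value. The gained peaks have medians of 2.26, 2.31 and 2.38, below those of all peaks, and reach at most 29.2, 28.8 and 28.0.

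On the transcript, the peaks gained in all 3 mutants lay mostly near the 3′ end. The 3′ UTR held 647 of the 992, or 65.2% (Wilson 95% interval 62.2% to 68.1%), against 40.7% of the 4328 other gained Mettl3 peaks and 66.5% of the 15730 Mettl3 peaks with a yw male partner. The share in the 5′ UTR was 9.17% (7.53% to 11.1%), against 14.6% and 16.5%. Other exonic sequence held 25.6%, against 44.7% and 17.0%. These intervals cover counting error only, since peaks of a list are not replicates. In the 3′ UTR share, the peaks gained in all 3 mutants thus stood apart from the peaks gained in the Mettl3 list otherwise, and not from the peaks shared with yw males, whose share lay within their interval. This likeness depended on the overlap rule, since with 50% of both peaks required the shares were 64.1% of 1333 gained and 74.0% of 11940 shared peaks. In the 5′ UTR share they lay below both. Peaks gained in all 3 mutants also had to pass peak calling in 3 lists and were stronger than the other gained peaks, which had a median fold enrichment of 1.77 in the Mettl3 list. With mutant peaks at an FDR of at most 0.01, the 3′ UTR shares were 66.9% of 768 and 45.3% of 3165. Within the 992, the 91 peaks in the 5′ UTR had the lowest medians, 1.85, 1.87 and 1.67 in the Mettl3, Mettl14 and Hakai lists, and the 647 in the 3′ UTR had 2.28, 2.41 and 2.46.

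The yw female list was not used to choose the peaks, and its flies carry an intact writer. Of the 992 peaks, 506 (51.0%, interval 47.9% to 54.1%) had a yw female partner by the same overlap rule. The share was 49.5% for the other gained Mettl3 peaks and 78.1% for those with a yw male partner. Roughly as many of the gained peaks were therefore listed in wild-type females as were not, with a median fold enrichment of 2.17 in the yw female list. By region, 54.3% of the 3′ UTR peaks had a female partner, against 42.1% of the other gained peaks in the 3′ UTR and 77.0% of the 3′ UTR peaks shared with yw males. In other exons the order of the gained groups was the opposite, 41.7% against 52.4%. A female partner went with expression in females. The genes of peaks with a female partner had a median of 9.24 FPKM in yw females, and those without one 0.915 FPKM. Among peaks in genes with at least 1 FPKM in yw females, 65.6% of 687 had a female partner, against 58.6% of 3387 other gained peaks and 86.9% of 12483 peaks with a yw male partner.

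**Figure D2:**
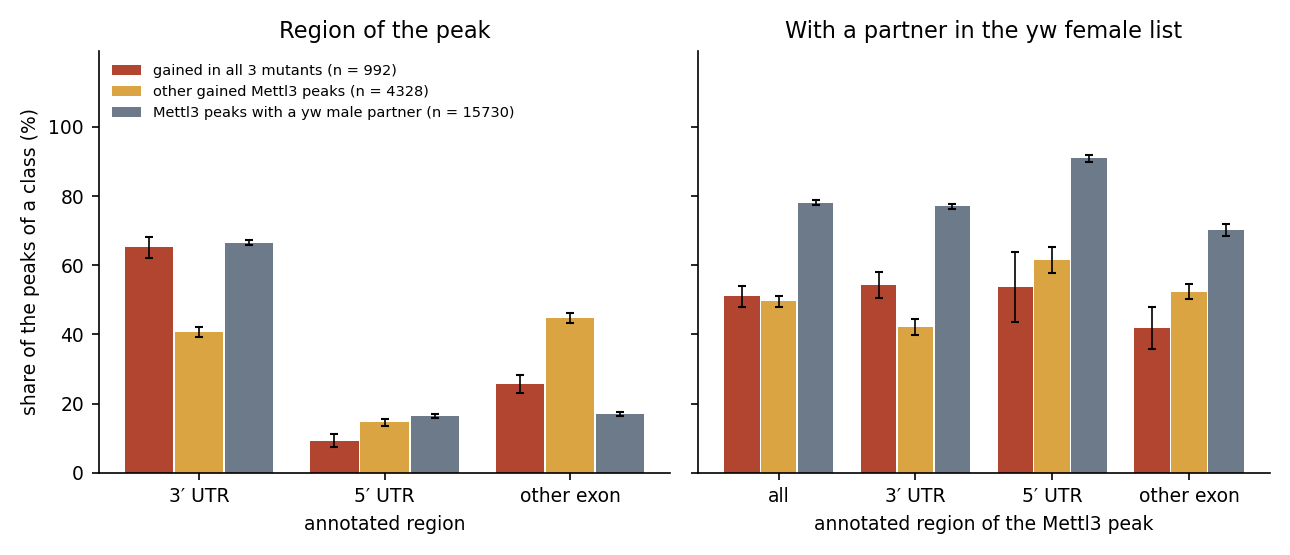
Left, share of the peaks of a class in each annotated region. Right, share with a partner in the yw female list, for all peaks of the class and by region. Bars give percent for peaks gained in all 3 mutants (992, left), other gained Mettl3 peaks (4328) and Mettl3 peaks with a yw male partner (15730, right), with Wilson 95% intervals. The 3′ UTR share of the peaks gained in all 3 mutants (65.2%) is close to that of the peaks shared with yw males (66.5%), while their share with a female partner (51.0%) is close to that of the other gained peaks (49.5%).

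By their relation to yw male peaks, the gained peaks fell into 3 groups. In 520 cases (52.4%) the gene had a yw male peak elsewhere, and the nearest lay a median of 909 bases away, with 29 of the 520 within 100 bases, 177 within 500 and 277 within 1000. Another 58 peaks (5.85%) touched a yw male peak without reaching the overlap of the rule. The remaining 414 (41.7%, interval 38.7% to 44.8%) lay in 377 genes with no yw male peak at all. This last share was 28.8% for the other gained Mettl3 peaks. The 520 peaks were spread over both sides of the nearest yw male peak, 275 toward the 3′ end and 245 toward the 5′ end of the gene. In the 3′ UTR, 209 of 324 lay on the 3′ side, and in the 5′ UTR 49 of 60 lay on the 5′ side. Peaks in genes with no yw male peak were the stronger ones, with median fold enrichments of 2.53, 2.70 and 2.82, against 2.04, 2.09 and 2.03 in genes with another yw male peak. Fewer of them had a yw female partner, 40.1% of 414 against 58.8% of 520. Genes with names of noncoding RNAs held 91 of the 414, and 12 of the 520. Of the 891 genes, 196 (22.0%) also held a yw male peak that was lost in all 3 mutants, against 15.7% of the 10977 genes with a Mettl3 peak. Among genes with a yw male peak the shares were 38.1% of 514 and 21.2% of 10379. A 5′ UTR peak was lost in 78 of the 596 genes with a 3′ UTR gain (13.1%), against 10.8% of the 8963 genes with any 3′ UTR peak in the Mettl3 list. These shares were not tested, and genes with more peaks can hold more of either kind.

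Gained peaks of both kinds took a higher share on chromosome 4 than on the large arms. This small chromosome, which carries few genes in an environment rich in heterochromatin, held 24 of the peaks, so 15.5% of its 155 Mettl3 peaks were gained in all 3 mutants (interval 10.6% to 22.0%). On the 5 large arms the share was between 4.32% (2R) and 4.95% (3L). The other gained Mettl3 peaks were 49 of the 155 (31.6%) on chromosome 4 and between 19.2% and 23.4% on the large arms, so the higher share was not particular to peaks gained in all 3 mutants. On the Y chromosome it was 3 of 33 peaks, in WDY, CCY and the noncoding Su(Ste):CR45795. The chromosome 4 peaks belonged to 17 of the 81 genes with a Mettl3 peak there, 21.0%, and on the large arms the share of genes was between 7.08% and 9.10%. Of the 24, 20 lay in the 3′ UTR, 17 had a yw female partner and 15 lay in a gene with a yw male peak. The list of yw males held 128 peaks on this chromosome, below the 155, 129 and 137 of the Mettl3, Mettl14 and Hakai lists and the 203 of yw females. The gene zfh2, which encodes a zinc finger homeodomain transcription factor, had 4 of the peaks, all in its 3′ UTR between 538141 and 540819 and more than 34 kb from its nearest yw male peak. The last 2 of them differ by a few bases and are in effect 1 place. Their fold enrichments were 1.77 to 2.90 in the Mettl3 list, 2.77 to 4.43 in the Mettl14 list and 1.54 to 2.31 in that of Hakai. CaMKII, a protein kinase of synapses and memory, had a peak from 1035288 to 1035528 with fold enrichments of 4.69, 4.67 and 5.23 in the mutants and 6.68 in yw females. The RNA of these genes moved little. None of the 17 was called in any mutant by limma, and none had the fold of a call at an unadjusted p under 0.05, while 4, 2 and 2 had such a p at a smaller fold. Their log2 fold changes lay between -0.65 and 0.54 for Mettl3 males, between -0.58 and 0.21 for Mettl14 males and between -0.73 and 0.04 for Hakai males.

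**Figure D3:**
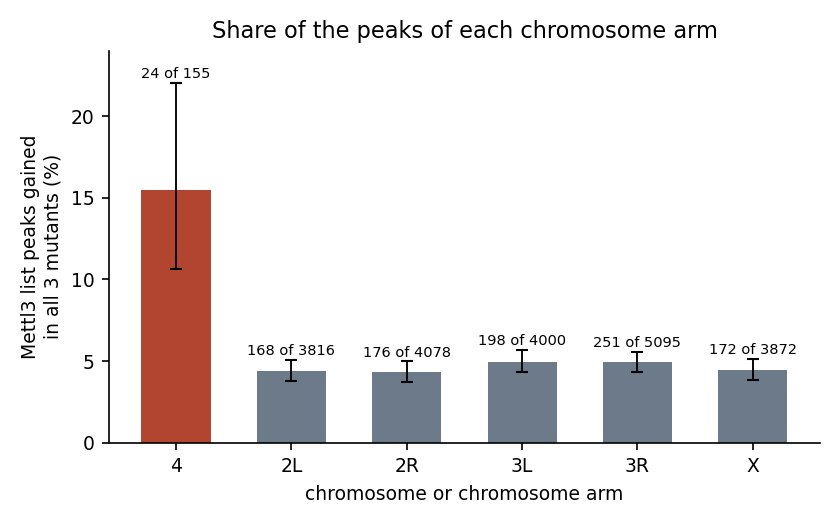
Share of the Mettl3 list peaks of a chromosome or chromosome arm that were gained in all 3 mutants (percent, bars) with Wilson 95% intervals (lines) and the counts above. Chromosome 4 has 15.5% (24 of 155), and the 5 large arms have between 4.32% and 4.95%.

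The 10 peaks with the highest fold enrichment in the weakest list, at an FDR of at most 0.01 in each, were mostly in genes with little RNA. Over all 30 peaks with at least 5 in every list, the median host gene had 0.866 FPKM in the mutants and 0.520 FPKM in yw males, and 19 of the 30 genes had under 1 FPKM in yw males. CG46276 (X, 20205043 to 20205163, 3′ UTR) is SdicB in RefSeq, a copy in the tandem Sdic cluster of sperm dynein genes, and had fold enrichments of 12.7 (Mettl3), 16.6 (Mettl14) and 14.9 (Hakai). Its RNA was 1.16 to 2.32 FPKM in the mutants, against 0 and 3.12 FPKM in yw males, so the yw libraries disagreed with each other. Su(Ste):CR45795 (Y, 1003984 to 1004103), a copy of the Suppressor of Stellate repeats that yield piRNAs in testes, had 12.7, 11.6 and 15.9. Both belong to families of nearly identical copies, so reads may be divided among the copies and the place of these peaks is uncertain. CG15225 (2R, 20793534 to 20793737, 3′ UTR) had 18.5, 9.97 and 25.2. The larval cuticle gene Lcp9 (2R, 24779979 to 24780204) had 22.4, 18.8 and 7.0, and qin (3R, 18649898 to 18650107), a factor of the piRNA pathway of the germline, had 13.1, 7.20 and 18.7. Input RNA of these last 4 was under 1 FPKM in all 8 male libraries, so few fragments stand behind the ratios.

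The other 5 of these peaks lay in genes with a wide range of RNA levels. CG33665 (X, 6478168 to 6478464, 3′ UTR) had fold enrichments of 13.1, 12.2 and 8.40. Its RNA was 64.3 and 66.3 FPKM in Mettl3, 87.7 and 89 FPKM in Mettl14 and 69.7 and 58.6 FPKM in Hakai males, against 26.5 and 27.3 FPKM in yw males, and the gene was nearly absent from yw females (0.0551 and 0.145 FPKM). All 6 mutant libraries lay above both yw male libraries. In limma's fit its log2 fold changes were 1.25, 1.68 and 1.22 (standard error 0.11 each, adjusted p = 0.00159, 0.00034 and 0.00132). CG17841 (X, 10376651 to 10376980) had fold enrichments of 6.86, 9.68 and 7.30 only 22 bases from a yw male peak. Its RNA was 67.6 and 71.1 FPKM in Mettl3 males, against 34.9 and 32.6 FPKM in yw males, a log2 fold change of 1.02 (adjusted p = 0.00181, limma), while 0.72 in Mettl14 and 0.44 in Hakai males did not reach the fold of a call. The call in Mettl3 males was lost for CG17841 with equal library medians (0.98), without yw male replicate 2 (0.97) and without Mettl3 replicate 2 (0.98). CG15309 (X, 10205292 to 10205560) had fold enrichments of 7.5, 6.02 and 6.69 with 15.5 to 27.8 FPKM in the mutants and 25.9 and 22.4 FPKM in yw males, a change that did not pass in any mutant. The zinc finger gene luna (2R, 10979275 to 10979665) had 7.06, 7.02 and 7.93 in the mutants and 11.9 in yw females, 1078 bases from the nearest yw male peak. CG8960 (3L, 2197821 to 2198089) had 7.13, 9.42 and 6.53. Its RNA was 1.94 and 2.01 FPKM in Mettl3, 0.479 and 0.309 FPKM in Mettl14 and 0.548 and 0.276 FPKM in Hakai males, against 0.0531 and 0.0779 FPKM in yw males, too low on average for the test.

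Most genes of the gained peaks were not called changed in RNA, and more were called higher in the mutants than lower. The input libraries also served as the background of peak calling, so RNA is not fully independent of the rule. Genes with a mean of at least 1 FPKM over the 8 male libraries were tested with limma on log2(FPKM + 1), and a call needed a Benjamini-Hochberg adjusted p under 0.05 and a log2 fold change of 1 or more in either direction. Of the 891 genes, 768 passed the filter, 42 of them with a mean under 1 FPKM in yw males. Those 42 passed through the mutant libraries and had to be higher there, so the counts are no evidence of a direction by themselves. In Mettl3 males 36 of the 768 (4.69%) were called higher, against 2.40% of all 13079 genes tested. In Mettl14 males it was 43 (5.6%, against 2.97%) and in Hakai males 33 (4.30%, against 2.18%). Called lower were 3 genes in each mutant, where the shares of all genes were 1.00% for Mettl3, 1.06% for Mettl14 and 1.45% for Hakai. Without the filter, 37, 44 and 36 of the 891 were called higher, where 332, 399 and 297 of all 17276 genes were. These were 4.15%, 4.94% and 4.04%, against 1.92%, 2.31% and 1.72%. With a mean of at least 5 FPKM it was 17, 18 and 18 of 536, where 199, 224 and 176 of all 9260 genes were called higher. The median log2 fold change of the 768 genes was 0.05, 0.10 and 0.04, beside 0.03, 0.11 and 0.03 for all genes. The library medians of Mettl14 males lay 0.13 and 0.14 above the yw mean on the log2 scale. With equal medians the count of higher genes in Mettl14 males was 36 (4.69%), against 2.33% of all genes tested.

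The higher genes were nearly all among those with no yw male peak. Of 290 tested genes of this kind, 33 were called higher in Mettl3 males (11.4%, interval 8.22% to 15.6%). For Mettl14 males the count was 38 (13.1%, interval 9.70% to 17.5%), and for Hakai males 28 (9.66%, interval 6.76% to 13.6%). Of 478 tested genes with a yw male peak, 3, 5 and 5 were. Among 756 genes that had another gained Mettl3 peak and no yw male peak, the shares were 3.04%, 4.23% and 3.17%, and among 2625 tested genes with no peak in the Mettl3 or yw male list they were 3.43%, 4.88% and 3.5%. These shares are a description. The first group was chosen by peaks in every mutant and none in yw males. A gene with little RNA in yw males could enter it for that reason. Of the 768 tested genes, 42 had under 1 FPKM in yw males and passed the filter through the mutant libraries. Nothing is therefore read from the difference between the groups. All 377 genes of gained peaks with no yw male peak, tested or not, had a median of 3.81 FPKM in yw males. For all genes with a Mettl3 peak it was 9.35 FPKM. Of the 377, 117 had under 1 FPKM in yw males. The part of low RNA in the shares was not tested. With a mean of at least 5 FPKM, 15, 17 and 15 of 182 such genes were called higher. These were 8.24%, 9.34% and 8.24%, against 2.15%, 2.42% and 1.90% of all 9260 genes. That mean includes the mutant libraries, where genes of this kind can be high, so nothing is read from this setting either. At 1 FPKM or more, 295 and 289 of the 377 genes with no yw male peak were found in the Mettl3, 298 and 296 in the Mettl14 and 289 and 284 in the Hakai libraries, against 263 and 262 in the yw male libraries. For the 514 genes with a yw male peak the numbers were 472 to 482 in the mutants and 472 and 471 in yw males.

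**Figure D4:**
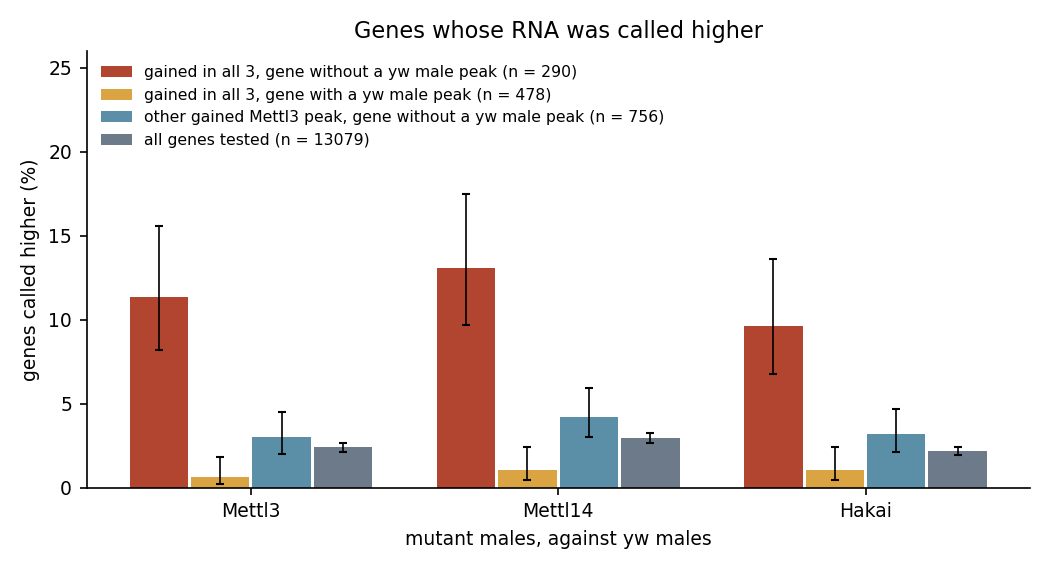
Share of tested genes whose RNA was called higher in Mettl3, Mettl14 and Hakai males than in yw males by limma (percent), with Wilson 95% intervals. Bars from left to right stand for genes of peaks gained in all 3 mutants without a yw male peak (290) and with one (478), genes of other gained Mettl3 peaks without a yw male peak (756), and all genes tested (13079). The first bar stands at 11.4%, 13.1% and 9.66%, for genes that were chosen by peaks in the mutants and none in yw males.

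Called higher in each of the 3 mutants were 21 of the 768 genes (2.73%), against 0.788% of all genes tested, and called lower in each were 0, against 0.222%. At an unadjusted p under 0.05 with the same fold, limma called 0 lower in each as well. The 3 comparisons share the yw male libraries, so these counts are not independent of each other. Of the 21 genes, 11 had names of long noncoding RNAs, 16 had under 1 FPKM in both yw male libraries and 20 had no yw male peak. The 16 passed the filter through the mutant libraries, where they are high, and could not have been called lower, so neither the 2.73% nor the 21 against 0 is read as a result about the gained peaks. In all 21, each of the 6 mutant libraries lay above both yw libraries.

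The largest changes among them came from transcripts at the lower edge of detection in yw males. CG15116, annotated with glutathione peroxidase activity, had 19.1 and 17.3 FPKM in Mettl3 males, 30.5 and 38.6 FPKM in Mettl14 males and 12.2 and 18.7 FPKM in Hakai males, and was listed at 0 and 0.0644 FPKM in yw males and at 0 in both yw female libraries. Its log2 fold changes were 4.22, 5.10 and 3.97 (standard error 0.21 each, adjusted p = 0.00021, 8e-05 and 0.00017, limma). The peak of CG15116 (2R, 19055231 to 19055551, 3′ UTR) had fold enrichments of 4.46, 2.91 and 3.36. For lncRNA:CR43839 the values were 17.1 and 17.0 FPKM in Mettl3, 11.5 and 9.12 FPKM in Mettl14 and 10.3 and 9.32 FPKM in Hakai males, against 0.0214 and 0.266 FPKM in yw males (log2 fold changes 3.99, 3.31 and 3.25). Its peak covers nearly the whole single-exon transcript (2L, 19470844 to 19471598) with fold enrichments of 5.29, 4.89 and 5.79. CG1304, a gene of the serine endopeptidase group, had 10.5 and 11.9 FPKM in Mettl3, 7.13 and 10.7 FPKM in Mettl14 and 6.81 and 11.3 FPKM in Hakai males, against 0.392 and 0.311 FPKM in yw males. Its log2 fold changes were 3.17, 2.85 and 2.86 (standard error 0.25 each). The fold enrichment of the CG1304 peak was only 4.22, 1.26 and 1.87.

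CecA2, which encodes the secreted antibacterial peptide Cecropin A2, had 5.47 and 4.82 FPKM in Mettl3, 17.4 and 20.9 FPKM in Mettl14 and 14 and 18.3 FPKM in Hakai males. In yw males it was listed at 0.322 and 0 FPKM. The log2 fold changes were 2.42, 4.13 and 3.88 (standard error 0.19 each, adjusted p = 0.0011, 0.00011 and 0.00015, limma). Its 3′ UTR peak (3R, 30212245 to 30212539) had fold enrichments of 2.19, 2.55 and 2.09, so that the levels of RNA differed between mutants while the enrichment over input was much alike. CecA2 was the one gene of 14 antimicrobial peptides with such a peak, and 8 of the 14 had any Mettl3 peak. Of the 12 peptide genes tested, limma called 4 (Mettl3), 9 (Mettl14) and 6 (Hakai) higher. The summed level of all 14 was 219 and 197 FPKM in Mettl3, 481 and 559 FPKM in Mettl14 and 496 and 658 FPKM in Hakai males, against 168 and 186 FPKM in yw males. In yw females, with an intact writer, it was 542 and 529 FPKM. The part of this wider change in the CecA2 result was not tested.

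Of the other 4 in this group of 8 genes, 3 were long noncoding RNAs. lncRNA:CR45408 (3L, 9222024 to 9222433) had 5.01 to 8.41 FPKM in the mutants, against 0 and 0.28 FPKM in yw males, with fold enrichments of 6.57, 6.36 and 5.15 for its peak. lncRNA:CR41352 (X, 22917217 to 22917498) had 3.53 to 8.63 FPKM, against 0.0351 and 0.118 FPKM, with fold enrichments of 3.44, 4.78 and 3.95. lncRNA:CR43846 (3R, 22851118 to 22851327) had 2.23 to 6.53 FPKM, against 0 and 0.0806 FPKM, with 3.16, 12.0 and 10.6. CG32301, annotated with adenylate cyclase activity, had 3.31 to 3.58 FPKM, against 0.242 and 0.434 FPKM, and was the only one of the 21 with a yw male peak, 1438 bases from the gained one. All 4 were called higher in each mutant, with log2 fold changes between 1.66 and 3.08. With yw values near 0 these sizes depend on the pseudocount. With 0.1 in place of 1, the log2 fold change in Mettl3 males was 4.15 in place of 1.66 for lncRNA:CR43846, 5.58 in place of 3.08 for lncRNA:CR41352 and 7.16 in place of 4.22 for CG15116. The deposited table does not say whether strand was used for FPKM, so reads of antisense or overlapping transcripts cannot be told apart for the noncoding genes.

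**Figure D5:**
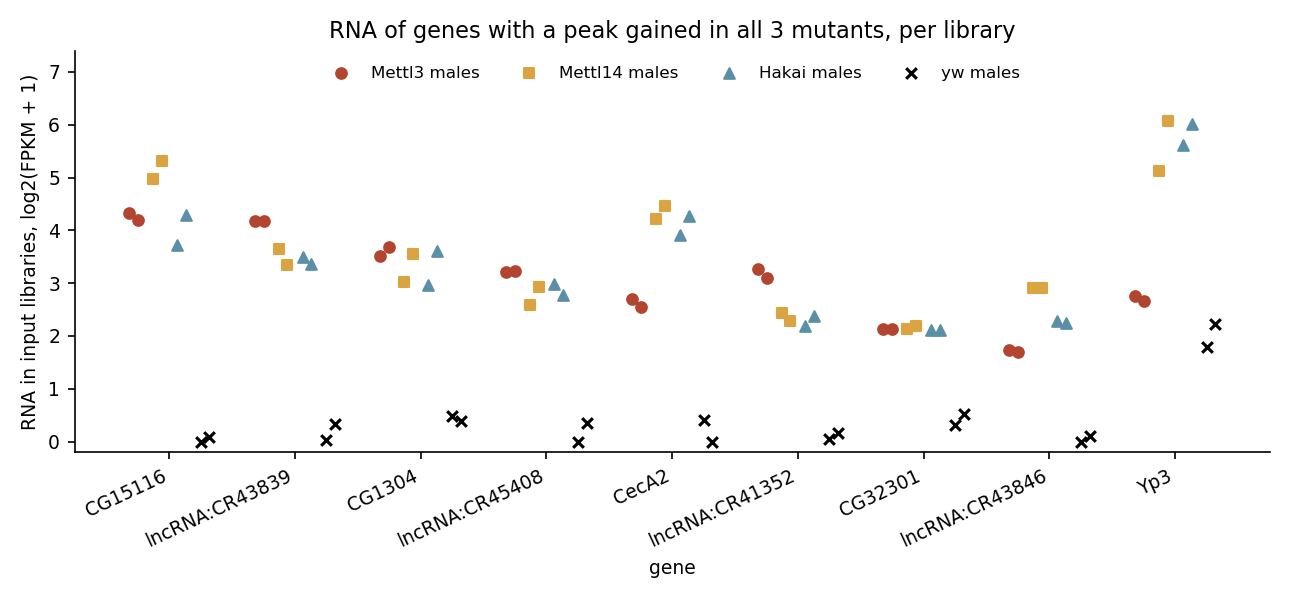
RNA level in each input library, as log2(FPKM + 1), of the 8 genes with the largest change in the weakest mutant among those called higher in all 3, and of Yp3. Points are libraries, 2 each for Mettl3, Mettl14, Hakai and yw males from left to right within a gene. In the 8 genes every mutant library lies above both yw libraries, and Mettl3 males have the lowest mutant values of CecA2 and Yp3.

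A pair of the genes encode proteins of egg production. Yp3, a yolk protein made by the female fat body and ovary, had 5.75 and 5.36 FPKM in Mettl3, 33.7 and 65.9 FPKM in Mettl14 and 48.0 and 63.5 FPKM in Hakai males, against 2.44 and 3.66 FPKM in yw males and 901 and 885 FPKM in yw females. It was called higher in Mettl14 and Hakai males (log2 fold changes 3.59 and 3.81, standard error 0.32 each, adjusted p = 0.00124 and 0.00105, limma), while 0.71 in Mettl3 males did not pass (adjusted p = 0.222). Its gained 3′ UTR peak (X, 13761369 to 13761517) had fold enrichments of 13.6 (Mettl3), 2.92 (Mettl14), 8.86 (Hakai) and 3.03 (yw females). Cp15, which encodes a chorion protein of the eggshell, had 3.21 and 3.34 FPKM in Mettl3, 4.06 and 4.22 FPKM in Mettl14 and 1.91 and 2.90 FPKM in Hakai males, against 0.258 and 0.253 FPKM in yw males and 189 and 183 FPKM in yw females. It was called higher in all 3 (log2 fold changes 1.77, 2.03 and 1.42), and its 3′ UTR peak (3L, 8728809 to 8729066) had fold enrichments of 5.44, 5.13 and 4.26, and 1.77 in yw females. Other female transcripts, chosen after their values were seen, did not move in the same way. The chorion and vitelline membrane genes Cp16, Cp18, Cp19, Cp36, Cp38 and Vm26Ab were at most 1.37 FPKM in any mutant library, at most 1.39 FPKM in yw males and at least 39.2 FPKM in yw females. Yp1 had 1.63 and 1.84 FPKM in Mettl3, 3.63 and 24.3 FPKM in Mettl14 and 2.21 and 1.19 FPKM in Hakai males, against 1.33 and 1.81 FPKM in yw males. Mettl14 replicate 2 alone was thus high for Yp1, and it also had the highest male value of the oocyte transcript osk, 2.33 FPKM. The list of 7 fat body markers (Lsp2, Fbp1, apolpp, Fbp2 and the 3 Yp genes) had summed levels of 451 and 448 FPKM in Mettl3, 282 and 341 FPKM in Mettl14 and 767 and 764 FPKM in Hakai males, against 160 and 106 FPKM in yw males, with 3, 2 and 4 of the 7 called higher.

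The groups of genes that hold the gained peaks were described by lists of markers and Gene Ontology terms, without a test. Of the 10977 genes with any Mettl3 peak, 891 (8.12%) had a peak gained in all 3 mutants. None of the 7 writer genes or 3 readers did, although all 10 had Mettl3 peaks. Of 166 ion channel genes with a Mettl3 peak, 23 (13.9%) had one, of 250 axon guidance genes 33 (13.2%), of 358 transcription factor genes 42 (11.7%) and of 540 synapse genes 62 (11.5%). Carbohydrate metabolism genes followed with 13 of 114 (11.4%) and protein kinase genes with 27 of 262 (10.3%). Genes with more peaks can more easily hold a gained one, and the shares do not take this into account. At the other end were oxidation-reduction genes with 16 of 466 (3.43%), neuropeptide or hormone genes with 3 of 74 (4.05%), ribosomal genes with 5 of 117 (4.27%), G protein-coupled receptor genes with 4 of 93 (4.30%) and mitochondrial genes with 37 of 655 (5.65%). Lists of genes used by neurons were thus found at both ends.

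Among the channel genes, the calcium channel gene cac (X, 11932568 to 11932838, 3′ UTR) had fold enrichments of 2.11 (Mettl3), 2.28 (Mettl14), 2.01 (Hakai) and 1.78 (yw females). The sodium channel gene para (X, 16482812 to 16482961, 3′ UTR) had 2.24, 2.69 and 2.14, and 2.27 in yw females. The glutamate receptor subunit gene GluRIIB (2L, 5563234 to 5563502, 3′ UTR), chosen after its values were seen, had 5.01, 3.88 and 13.1 and no yw male or yw female partner. Among axon guidance genes, robo3 (2L, 1296506 to 1296596, 3′ UTR), a receptor for Slit that was also chosen after its values were seen, had 5.11, 19.9 and 8.40, the last at an FDR above 0.01. Among the flight muscle markers, bt and sls encode giant titin-like proteins, and the libraries of whole flies do not place their peaks in a tissue. Their gained peaks in other exons ran from 746723 to 747500 on chromosome 4 (3.07, 4.21 and 2.90) and from 2068095 to 2068305 on 3L (3.89, 2.69 and 2.52). A second bt peak, in the 3′ UTR, had only 1.06, 1.33 and 1.49. RNA of sls was 15.3 and 16.9 FPKM in Mettl3 males, against 24.5 and 23.3 FPKM in yw males, and its log2 fold change of -0.54 (adjusted p = 0.0284, limma) did not reach the fold of a call. The list of 10 flight muscle markers moved with it, with sums of 11906 and 11790 FPKM in Mettl3 males, against 17817 and 20591 FPKM in yw males. The sums were 13883 and 15224 FPKM in Mettl14 males and 17372 and 18446 FPKM in Hakai males. The median log2 fold change of the list was -0.62 in Mettl3 males, with 1 of 10 called lower. It was -0.29 in Mettl14 and -0.09 in Hakai males. The part of this wider change in the sls value was not tested. Among testis markers, twe, the meiotic Cdc25 phosphatase, had 3.17, 2.89 and 4.17, and nht, a testis-specific subunit of the general transcription machinery, had 2.30, 3.32 and 1.83. Their RNA did not differ beyond the threshold in any mutant. Of markers with a Mettl3 peak, 2 of 15 testis, 2 of 9 flight muscle and 2 of 10 neuronal ones had a gained one. It was 1 of 6 for fat body, and 0 of 10 photoreceptor, 0 of 10 midgut enzyme and 0 of 8 accessory gland markers.

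Few genes held several of the peaks. One peak was found in 805 genes, 2 in 78 and 3 or more in 8. CG12620, annotated as a phosphatase inhibitor, and zfh2 had 4 each, and those of CG12620 are pairs of nearly the same position. The rule asks the Mettl14 and Hakai peaks to overlap the Mettl3 peak and not each other. For the CG12620 peak from 17087641 to 17087996 on 2L, the Mettl14 partner ended at 17087730 and that of Hakai began at 17087907. The 2 partners thus marked different places. The peaks of CG12620 were weak, with fold enrichments of 1.22 to 1.82 in the mutants, and its RNA was nearly absent from yw females (0.0387 and 0.0667 FPKM) but 31.2 to 46.0 FPKM in the mutants and 45.8 and 40.8 FPKM in yw males. The boundary factor gene mod(mdg4), whose many isoforms share a 5′ exon, was listed 8 times for 3 overlapping positions between 21356391 and 21356547 on 3R (5′ UTR), with fold enrichments of 1.40 to 1.78. CG13607 had 3 peaks with 1.30 to 3.89 in the Mettl3 list, all partnered by the same long Mettl14 and Hakai peaks. The Mettl14 one ran from 24113556 to 24118647 on 3R. The widest of the 3 had 241 exonic bases in a width of 5092. The others were 150 and 60 bases wide and lay inside the partners by outer coordinates, so their match may rest on that rule alone. CG1074 had 3 peaks with 1.92 to 2.08. In these 5 genes no change of RNA reached a call.

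The 3 peaks with the highest overlap that still counted as gained were in the 3′ UTR of Adgf-A (50% of the smaller peak, Mettl3 fold enrichment 2.43), CG3491 (50%, 3.39) and CG5116 (48.9%, 3.09). The yw male peaks they touched had fold enrichments of 1.38, 2.37 and 2.43. Just above the limit, and so not gained, were peaks of CG6700 (50.1%, fold enrichment 2.40), lncRNA:CR44393 (50.2%, 13.6) and CG42795 (50.3%, 1.36). Only 58 of the 992 peaks touched a yw male peak, with a median overlap of 18.6% of the smaller peak.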

How the data were processed

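Peak lists of Mettl3, Mettl14, Hakai and yw males and of yw females and a table of FPKM in 10 input libraries were used. Per the study's methods, the authors used fastp for trimming and HISAT2 for mapping, called peaks with exomePeak from IP against input libraries of a genotype and annotated them with ChIPseeker. The deposited fold enrichment is a linear ratio of IP over input, given by the authors with the peak's p-value and FDR as log10 scores. The authors made the deposited FPKM with StringTie. Read numbers are not given in the sources used here, so depth is unknown, and how far it sets the weak peaks was not measured. Coordinates are those of the files. Of 16154 genes matched by symbol, 16148 start or end within 100 bases of their place in Release 6. No genome sequence was at hand, so sequence features were not analysed.

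Peaks were matched in Python 3.11.15 (numpy 2.4.6, pandas 2.3.3, scipy 1.17.1, matplotlib 3.10.9) where the shared stretch exceeded 50% of the smaller peak by outer coordinates. Each overlap rule was tested on 2000 simulated peaks. Wilson 95% intervals cover counting error only. RNA tests used the R 4.3.3 package limma 3.58.1 (lmFit, then eBayes with an intensity trend). One model of log2(FPKM + 1) held the 8 input libraries of males, for 13079 of 17276 genes with a mean of at least 1 FPKM, two-sided, with Benjamini-Hochberg adjustment over all genes tested. The 2 libraries of a group are separate samples by label only, so p-values measure the spread between them, which may be technical. Simulated data gave 184 calls among 200 planted genes and 7 among 12879 others. The study's methods use an unadjusted p, which was an alternative here. The members and gene lists were chosen with earlier results of these data known. Named genes are the hosts of the 10 peaks with the highest fold enrichment in the weakest list at an FDR of at most 0.01, up to 8 genes called higher or lower in all 3 mutants, the 5 genes with most peaks, members of the marker lists and the 3 peaks on each side of the overlap limit. Other names were chosen after their values were seen. Alternatives were any overlap, 50% of both peaks, exonic blocks, an FDR of at most 0.01 or 5-fold enrichment or more in the mutants, starting from another list, and for RNA a pseudocount of 0.1, other filters, a fit of 4 libraries, a replicate block, equal medians, no trend, an unadjusted p and leaving out each library. Shares of single positions and of genes with at least 1 FPKM were added after seeing the data.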

Additional observations from a re-analysis of the deposited data

Results flagged for a closer look

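Some of the named genes differed between the mutants by more than a log2 difference of 1 in limma's contrast of the mutants (adjusted p under 0.05), and in each the libraries of the 2 mutants did not overlap. Yp3 RNA was higher in Mettl14 than in Mettl3 males by 2.88 (standard error 0.32, adjusted p = 0.00363) and in Hakai than in Mettl3 males by 3.10 (adjusted p = 0.00302). CecA2 RNA was higher in Mettl14 than in Mettl3 males by 1.71 (standard error 0.19, adjusted p = 0.00355) and in Hakai than in Mettl3 males by 1.47 (adjusted p = 0.00622). lncRNA:CR43846 was higher in Mettl14 than in Mettl3 males by 1.19 (standard error 0.10, adjusted p = 0.00124). CG13607, with 19.9 and 20.5 FPKM in Mettl14 and 8.35 and 8.73 FPKM in Mettl3 males, differed by 1.15 (adjusted p = 0.00882). CG15116 was lower in Hakai than in Mettl14 males, with a log2 difference of -1.13 (standard error 0.21, adjusted p = 0.0261).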

How the results depend on the processing

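The count of 992 was 987 when the rule started from the Mettl14 list, 970 from the Hakai list, 992 with any overlap, 1029 with exonic blocks, 1333 with 50% of both peaks, 768 at an FDR of at most 0.01 and 30 with a fold enrichment of at least 5. With that last setting the 3′ UTR held 70.0%, 23.3% had a yw female partner, 70.0% lay in genes with no yw male peak and 0 of the 30 lay on chromosome 4. The 992 with any overlap were not the same peaks, since the 58 that touch a yw male peak drop out there. Of them, 63.5% lay in the 3′ UTR and 53.0% had a yw female partner. The female share was 42.1% with 50% of both peaks and 55.3% at an FDR of at most 0.01, and the share in genes with no yw male peak was 21.2% with 50% of both peaks. In genes with at least 1 FPKM in yw males, the 3′ UTR held 68.2%, 55.8% had a female partner and 35.3% lay in genes with no yw male peak. In genes with at least 1 FPKM in yw females the female share was 65.6%. The 3′ UTR share lay above that of the other gained peaks in each setting that kept the Mettl3 list as the start, and it was not set against them for the other starts. Settings by FPKM, and the shares in genes with no yw male peak and on chromosome 4 under other overlaps, were chosen after seeing the data.

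With a mean of at least 5 FPKM, 17, 18 and 18 genes were called higher in Mettl3, Mettl14 and Hakai males by limma. These were 3.17%, 3.36% and 3.36%, against 2.15%, 2.42% and 1.90% of all 9260 genes. Called lower in Hakai males were 0, against 1.11% of all genes (1 at an unadjusted p under 0.05). Fewer genes are tested in that setting. Called lower were 5 (0.651%) in Mettl3 males with a pseudocount of 0.1, against 1.32% of all genes tested. In Mettl14 males it was 5 (0.651%) both with equal medians (against 1.38%) and with an unadjusted p (against 1.23%). Leaving out 1 library gave 24 to 42 higher and 3 to 4 lower genes in Mettl3, 37 to 43 and 2 to 4 in Mettl14, and 30 to 35 and 2 to 6 in Hakai males. The fewest higher genes in Mettl3 males were found without Mettl3 replicate 1, where the calls over all genes tested fell as well. That lower count is therefore not read as a result about these genes. The most lower genes in Hakai males were found without Hakai replicate 2. Where 1 library of a group was left, it was assumed to vary like the other groups. A replicate block gave 37, 47 and 34 higher and 4, 4 and 3 lower. Labels do not pair the genotypes by replicate number, but deviations of same-numbered libraries correlated with r of 0.50 (yw and Mettl14), 0.46 (yw and Hakai) and 0.67 (Mettl14 and Hakai), and of 0.01 to 0.06 for the pairs with Mettl3 males. With 2 numbers this is a hint from the data and not from the design. Of the 1317 values of named genes under alternatives, 1313 stayed on their side of the threshold of a call and 4 did not. The sign changed in 44, none of them (0) a called value, for log2 fold changes of at most 0.49 in size. Depth is unknown, so the reliability of weak peaks in genes under 1 FPKM cannot be measured. Sequence features of the peaks were not run for want of a genome.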
